A study of Pimephales promelas with 15 samples.

Results

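The transcripts described here are those whose level differed most between pools of fish that had received the same treatment. They are 83 of the 14279 protein identifiers that carry estimated counts. They were chosen by their measured values. An identifier was considered if it stood on 1 or 2 rows of the count table and had a mean of 10 to below 1000 CPM, which is its count per mega-count (M) of the library total, over the 15 libraries. It was chosen if its pooled within-group SD, the square root of the mean of the 3 groups' variances of log2(CPM + 1), was 1 or more. An SD of 1 corresponds to about 2-fold from the group's centre only where pools are evenly spread and far above 1 CPM. The pooled SD can also reach 1 when 1 pool is under 1 CPM and the others lie close together. Of the 14138 identifiers on 1 or 2 rows, 9710 lay in the range of means, and the 9627 that were not chosen are the set for comparison throughout.

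The fish were larvae of the fathead minnow (Pimephales promelas), sampled 7 days after fertilization. Their parents received food carrying hexabromocyclododecane (HBCD), a brominated flame retardant, or the ethanol vehicle alone, and the larvae then grew in clean water. The 3 groups were a solvent control, a low HBCD group whose parental food held 11.5 mg per kg and whose young held 0.576 mg per kg, and a medium HBCD group with 36.4 mg per kg in the food and 1.77 mg per kg in the young. Each group had 5 libraries, named A to E, and each library came from the RNA of 20 whole animals pooled together. The tissue label reads whole embryo bodies. A group with a higher dose was not analysed here.

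A pool averages the RNA of all its animals, so a transcript made by a few of them appears diluted, and one made by all of them appears at a level close to its typical one. The counts came from kallisto, a program that assigns each read to the set of reference sequences it matches and divides a read shared by several similar sequences among them by an iterative estimate. A count that is not a whole number therefore marks a row that shared reads with another reference sequence, which need not belong to another identifier. When similar sequences compete for the same reads, the estimate can give nearly all of them to one sequence in one library and to another sequence in the next. In whole animals, fewer cells making a transcript and less transcript per cell cannot be told apart.

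None of the 14279 identifiers matched the available table of 64593 fathead minnow genes. No gene symbol or function is therefore attached to any of them, and tissue markers could not be checked. The identifiers may name proteins of another species, which was not checked. UniProt accessions made up 45 of the 83 (54.2%), RefSeq predicted protein models with the prefix XP made up 22 (26.5%), and RefSeq curated proteins with the prefix NP made up 16 (19.3%). Among the others in the range these shares were 59.2%, 25.0% and 15.8%. All 83 stood on a single row, whereas 4.86% of the others stood on 2 rows.

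Library totals ran from 12.6 to 58.4 M estimated counts. Solvent control D and E were the deepest, with 49.3 and 58.4 M, and were also the most alike of the 30 pairs of libraries within groups. The median gap between these 2 libraries was 0.374 on the log2(CPM + 1) scale over the 83 identifiers and 0.0659 over the others. The median over all 30 pairs was 0.978 for the 83 and 0.195 for the others. Medium HBCD D and E, with a gap of 0.462 over the 83, and medium HBCD B and C, with 0.555, came next. The largest gap was 1.71, between medium HBCD C and E. Nothing in the labels tells whether each pool had its own parents, or whether some libraries were handled together. The tests below therefore judge differences between groups against the spread between these pools, which may not be the spread between separate parents. Without solvent control D and E the same rule chose 94 identifiers, among them 75 of the 83.

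The chosen identifiers were mostly of low abundance. Their median mean level was 15.6 CPM, against 42.7 CPM for the others in the range. Only 23 of them (27.7%) had a mean of 20 CPM or more, against 79.8% of the others, 7 had 50 CPM or more and 3 had 100 CPM or more. The highest mean was 370.4 CPM, for NP_957211.1. The pooled SD ran from 1.009 to 2.491 with a median of 1.27, against a median of 0.189 for the others. It was 2 or more for 7 identifiers and 1.5 or more for 26. Just inside the threshold were A0A0R4IY40 at 1.009, XP_021333664.1 at 1.011 and NP_571588.1 at 1.016. Just outside it were XP_005168569.1 at 0.997, XP_021329664.1 at 0.993 and Q803M0 at 0.985. These values chose the identifiers and are given as a description.

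**Figure D1:**
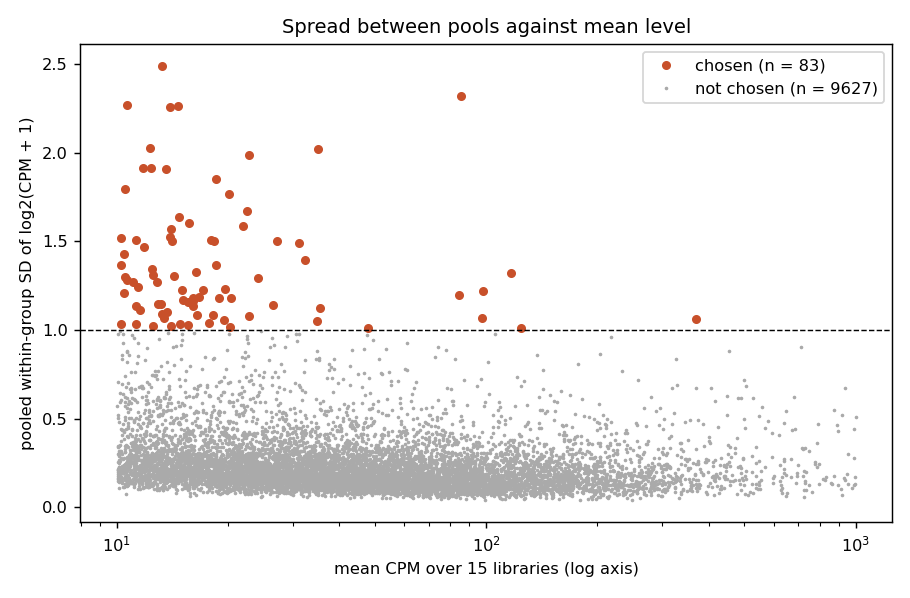
Pooled within-group SD of log2(CPM + 1) against mean CPM over 15 libraries (log axis). Each dark point is 1 of the 83 chosen identifiers and each small grey point 1 of the 9627 others in the range, and the dashed line is the threshold of 1. Most of the chosen identifiers lie at the low end of the mean levels, and only 3 have a mean of 100 CPM or more.

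The SDs within the groups, from which the pooled SD was formed, are given as a description. The median SD of the 83 was 1.20 in the solvent control, 1.05 in low HBCD and 1.44 in medium HBCD, where the others had 0.160, 0.196 and 0.172. An SD of 1 or more was reached by 48 of them in the solvent control, by 43 in low HBCD and by 53 in medium HBCD. It was reached in 1 group only by 38 identifiers, in 2 groups by 29 and in all 3 groups by 16. The group with the largest SD was the solvent control for 21 identifiers, low HBCD for 28 and medium HBCD for 34.

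The 83 identifiers comprised those with an estimate near 0 in some libraries and those that stayed above 1 CPM in all. A library under 1 CPM was found for 59 of the 83 (71.1%), against 10 of the 9627 others (0.104%). Of identifiers with a mean below 20 CPM, 51 of 60 chosen ones (85.0%) and 10 of 1948 others (0.513%) had such a library. The rule favours such identifiers by its arithmetic: with 1 library at 0 and the other 14 equal, the pooled SD reaches 1 when the 14 stand at 13.65 CPM. Of all 1245 values of the 83, 116 (9.32%) were under 1 CPM, 93 of these rested on 3 counts or fewer, and 20 were exactly 0. The 116 values were spread over the groups, with 39 in the solvent control, 40 in low HBCD and 37 in medium HBCD. They touched 1 group for 37 identifiers, 2 groups for 12 and all 3 groups for 10.

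**Figure D2:**
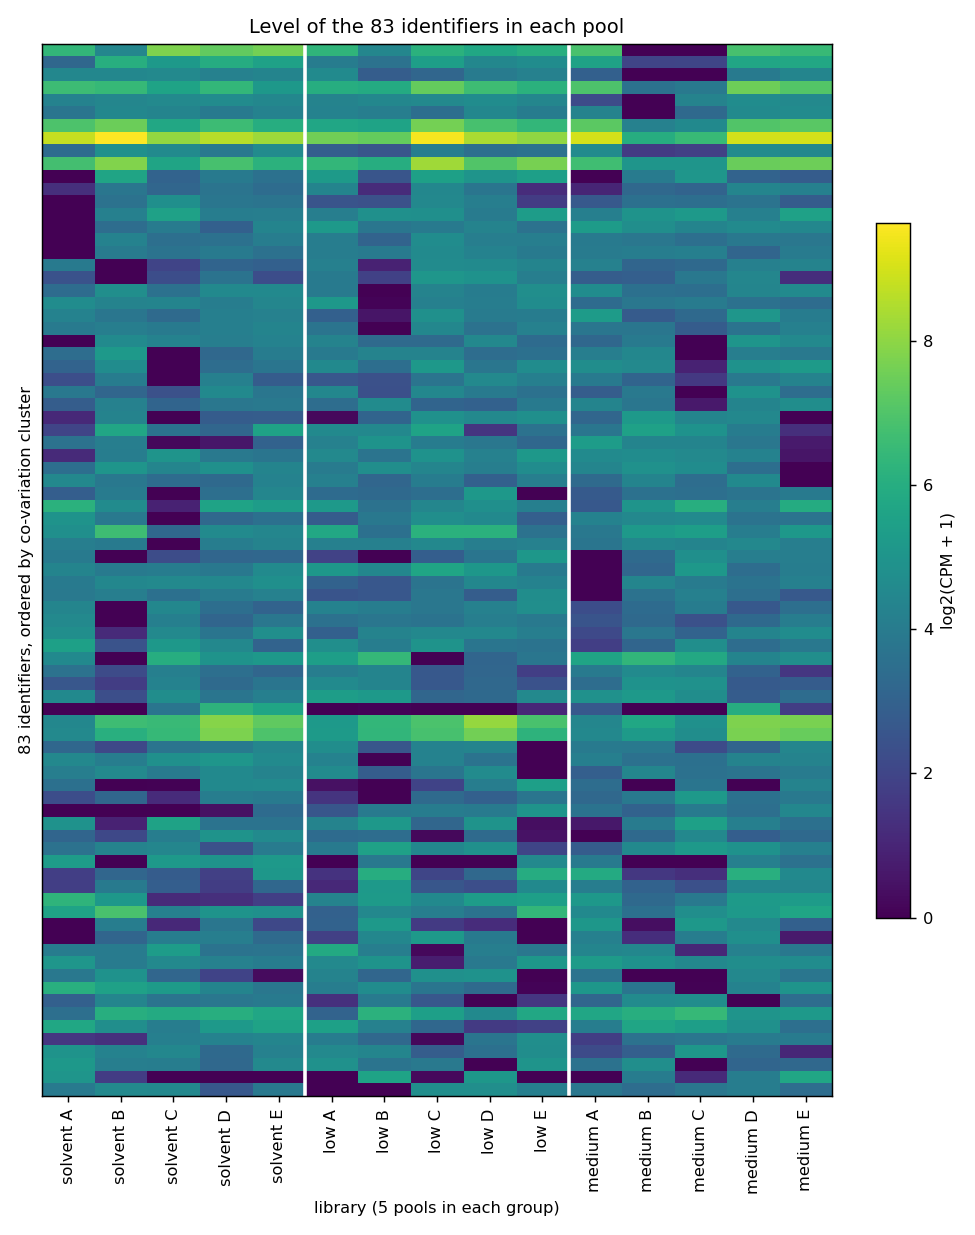
Level of the 83 chosen identifiers (rows, ordered by the clusters of co-varying identifiers) in the 15 libraries (columns, 5 for each group, white lines between groups), as log2(CPM + 1) by colour. Dark cells are libraries in which an identifier is close to 0. They occur in every group, and most rows with such a cell have only 1 or 2.

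The most common pattern was a single library with an estimate under 1 CPM. This held for 32 of the 83 identifiers, of which 12 had it in the solvent control, 10 in low HBCD and 10 in medium HBCD. In the library concerned the median estimated count was 0.00909, and 25 of the 32 had 3 counts or fewer there. At the identifier's median CPM these libraries would have held at least 87.5 estimated counts, with a median of 209.1. Such counts can include divided reads, and the part of depth in the low values was not tested. In the next lowest library the level was 1.08 to 15.2 CPM with a median of 5.86, and for 19 of the 32 it was 5 CPM or more.

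The following examples were picked after their values were seen, for how far the single low library lay from the rest. F1QHI5 had an estimated count of 8.62e-05 in solvent control A and had 15.2 to 44.6 CPM in the other 14 libraries. A5PLK2 had 0.691 CPM in low HBCD C and 13.8 to 38.3 CPM in the other 14. XP_021327299.1 had an estimated count of 2.49e-06 in solvent control C, where its median level would have given 224.1 counts, and 12.6 to 21.5 CPM elsewhere. In each case the estimate was below 1 CPM in 1 pool of 5 and above 10 CPM in the other pools of its group. All 15 counts of each of these 3 identifiers were fractional, so a low estimate is not shown to be absence of the transcript.

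A further 14 identifiers were under 1 CPM in 2 libraries, and in only 4 of them did both libraries belong to 1 group. In 13 identifiers 3 or more libraries were under 1 CPM, and the number was 3 for 7 of them, 4 for 2, 6 for 2, 7 for 1 and 8 for 1. These supplied 7 of the 10 identifiers of largest SD.

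XP_021324571.1, which had the largest pooled SD of all (2.491), had 31.6 CPM in solvent control A, 2.29 in B, 0.0203 in C and less than 0.01 in D and E. In low HBCD it had 47.5 CPM in B, 33.6 in D, 0.197 in C and less than 0.01 in A and E. In medium HBCD it had 50.7 CPM in E, 16.1 in D, 15.6 in B, 1.22 in C and less than 0.01 in A. Each group thus held a pool with more than 30 CPM beside a pool with an estimate near 0.

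E7F9S0 (pooled SD 2.272) had 10.8 CPM in solvent control A, 0.0340 in C, 22.9 in D, 23.3 in E and less than 0.01 in B. In low HBCD it had 0.365, 2.79, 16.1 and 41.9 CPM in A, C, D and E and less than 0.01 in B. In medium HBCD it had 9.99, 12.5 and 18.7 CPM in A, C and E and less than 0.01 in B and D. It was near 0 in pool B of every group, but the letters are not stated to link pools between groups.

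XP_005160470.1 (2.265) had 38.8, 36.3, 29.8 and 36.2 CPM in solvent control A, C, D and E and less than 0.01 CPM in B. In low HBCD it had 13.8 CPM in B, 22.3 in E and less than 0.01 in A, C and D. In medium HBCD it had 14.5 CPM in A, 17.2 in D, 11.1 in E and less than 0.01 in B and C. Its values were either above 10 CPM or below 0.01 CPM and formed separate high and near-0 sets in each group.

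Q9YH92 (2.257) was the identifier with most libraries under 1 CPM, 8 of 15. In the solvent control it had 0.0451 CPM in A, 12.3 in C, 74.7 in D, 49.8 in E and less than 0.01 in B. In low HBCD it had 0.0554 CPM in B, 1.09 in E and less than 0.01 in A, C and D. In medium HBCD it had 5.30 CPM in A, 63.8 in D, 2.38 in E and less than 0.01 in B and C. All low HBCD pools lay near the bottom, while the other groups held both high and near-0 pools.

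NP_956944.2 (2.319) differed from these in its abundance and in the place of its low values. It had 81.6, 20.5, 216.9, 160.1 and 197.3 CPM in solvent control A to E and 78.7, 20.4, 70.8, 52.9 and 65.6 CPM in low HBCD A to E. In medium HBCD it had 116.6 CPM in A, 113.9 in D, 88.0 in E and less than 0.01 in both B and C. No solvent control or low HBCD library was below 20 CPM.

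F1R2E0 (2.02) had 22.7, 63.6, 29.8 and 33.9 CPM in solvent control A, C, D and E against 0.0255 CPM in B. In low HBCD it had 40.8, 85.5, 7.89 and 12.6 CPM in A, B, D and E against 0.0112 CPM in C, and in medium HBCD it had 48.7, 79.9, 55.0, 19.3 and 25.8 CPM in A to E. It was under 1 CPM in 2 libraries, neither of them in medium HBCD.

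XP_017214084.1 (1.986) was the only one of the 10 identifiers of largest SD that was above 1 CPM in every library. It had 2.47, 8.13, 6.07, 2.50 and 33.1 CPM in solvent control A to E, 1.65, 62.8, 3.03, 8.61 and 62.1 CPM in low HBCD A to E, and 58.0, 1.99, 1.47, 66.4 and 23.0 CPM in medium HBCD A to E. Every group held at least 1 pool above 30 CPM and at least 2 below 9 CPM. The remaining 3 of the 10, F1RDZ9, A0A0R4IXF1 and Q5TZH0, were under 1 CPM in 4, 3 and 3 libraries and reached 29.4, 35.1 and 36.2 CPM at their highest.

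Levels under 1 CPM occurred in every library, and more of them fell in shallower libraries. The 7 libraries with 20 M counts or more had 2 to 8 of the 83 identifiers under 1 CPM, with a median of 4. The 8 libraries below 20 M had 8 to 12, with a median of 11. The same ranges and medians were found after every library had been thinned to 12.6 M counts. Thinning was applied to the finished, rounded estimates and keeps a level in CPM on average. It therefore cannot show how depth affected the estimates themselves. Solvent control D and E had 3 and 2, medium HBCD D had 2 and low HBCD D had 4. In solvent control A, B and C the numbers were 11, 11 and 12. The part of library preparation or sequencing depth in these low values was not tested. The 83 identifiers together held 1451 to 3018 CPM of a library.

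**Figure D3:**
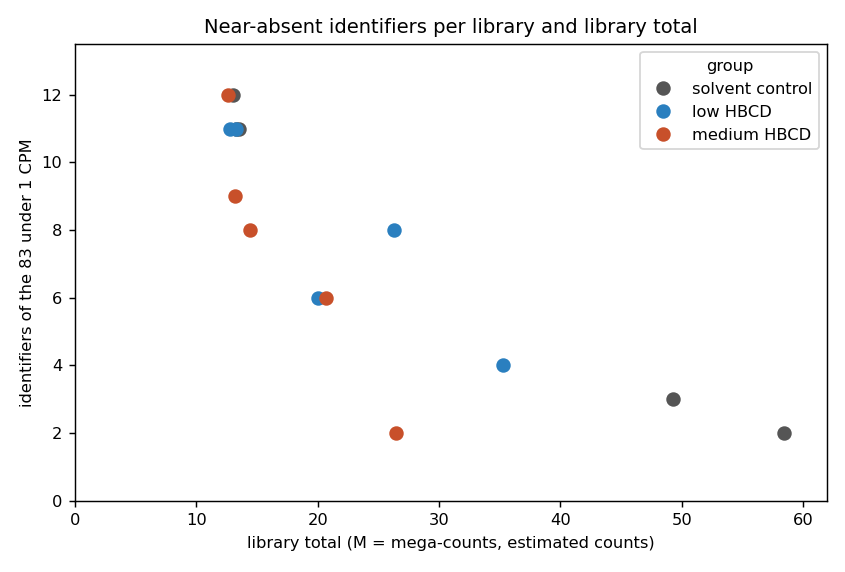
Number of the 83 chosen identifiers under 1 CPM in each library (vertical axis) against the library's total in M estimated counts (horizontal axis). Each point is 1 of the 15 libraries, coloured by group. Libraries below 20 M counts have 8 to 12 such identifiers, and those of 20 M or more have 2 to 8, in all 3 groups.

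Counts of the 83 were fractional far more often than those of other identifiers. The rule did not read this property. It favours near-0 estimates, however, and a count between 0 and 1 is itself fractional, so the property is not independent of the choice. Of their values, 91.6% were not whole numbers within a tolerance of 1e-06, against 59.8% of the values of the others in the range and 61.4% of those of the others with means below 20 CPM. Leaving out values of 0, which are whole, the shares were 93.1% and 60.0%. Every one of the 15 values was fractional in 62 identifiers (74.7%), against 46.5% of the others and 50.9% of the others with means below 20 CPM. Only 5 (6.02%) had whole numbers in every library, against 34.2% of the others. Among the 83, values were fractional in 96.8% of cases for identifiers with a library under 1 CPM and in 78.9% for those without. The near-0 estimates enter the first of these shares. Most of the 83 therefore shared reads with another reference sequence, and the part of that sharing in their spread was not tested.

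The 5 identifiers with whole counts throughout were NP_957211.1, A0A0R4ICG0, X1WG55, A0A0R4IJX9 and F1QGY9, named after their values were seen. Their mean levels were 370.4, 97.8, 97.5, 34.9 and 12.5 CPM, and none of them fell below 1 CPM in any library. Their pooled SDs were 1.064, 1.218, 1.07, 1.048 and 1.022.

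Altogether 24 identifiers stayed at 1 CPM or more in all 15 libraries. Their highest library exceeded their lowest 9.74- to 61.0-fold, with a median of 15.5-fold and the largest ratio for XP_005169262.1. That identifier had 75.5 and 34.0 CPM in solvent control A and B but 1.24, 1.49 and 2.47 CPM in C, D and E, and 8.86 to 42.0 CPM in the 10 exposed pools. The solvent control was thus the only group in which it dropped to a few CPM.

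NP_957211.1, the most abundant of the 83, had 437.4, 795.4, 267.0, 388.3 and 299.4 CPM in solvent control A to E. It had 188.3, 164.2, 718.5, 341.7 and 265.1 CPM in low HBCD A to E and 519.4, 63.6, 88.2, 501.0 and 518.4 CPM in medium HBCD A to E. The group means were 437.5 ± 211.3, 335.6 ± 225.1 and 338.1 ± 239.6 CPM (SD, n = 5 each), and the ranges overlapped. The highest pool exceeded the lowest 2.98-fold in the solvent control, 4.38-fold in low HBCD and 8.16-fold in medium HBCD. Medium HBCD B and C lay below every other library.

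F1RAU6 and A0A0R4ICG0, singled out after their values were seen, moved together, with a correlation of 0.982 between their deviations from the group means over 15 libraries. F1RAU6 had 21.0, 99.5, 90.6, 235.4 and 156.6 CPM in solvent control A to E, 36.1, 82.6, 117.7, 276.7 and 114.5 CPM in low HBCD, and 20.4, 53.0, 27.4, 218.3 and 204.8 CPM in medium HBCD. A0A0R4ICG0 had 22.3, 67.1, 87.2, 211.5 and 122.8 CPM in solvent control A to E, 36.7, 80.5, 112.2, 189.7 and 74.0 CPM in low HBCD, and 21.7, 37.2, 25.8, 209.4 and 168.2 CPM in medium HBCD. Both were lowest in pool A and highest in pool D of all 3 groups. Pool D was the deepest library of low HBCD (35.25 M) and of medium HBCD (26.44 M). In the solvent control, D held 49.3 M and only E was deeper. Pool A, with 13.23 M in the solvent control, 20.0 M in low HBCD and 14.41 M in medium HBCD, was the shallowest of no group. The part of depth in this pattern was not tested. Within a library the level of F1RAU6 was 0.937 to 1.55 times that of A0A0R4ICG0.

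The spread was also read in pools that had no part in the choice. When the rule was applied to 2 groups alone and the SD was then read in the third, 91 identifiers were chosen without the solvent control, 83 without low HBCD and 78 without medium HBCD. Of these, 64, 63 and 58 belong to the 83 described here, so the sets read differ in part from them. In the solvent control 34 of the 91 (37.4%) had an SD of 1 or more, with a median of 0.723. In low HBCD it was 29 of 83 (34.9%), with a median of 0.794. In medium HBCD it was 33 of 78 (42.3%), with a median of 0.873. Of identifiers in the range that were not chosen in the other groups, 0.394% reached an SD of 1 in the solvent control, 0.562% in low HBCD and 0.642% in medium HBCD, and their medians were 0.160, 0.196 and 0.173.

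The gap was also present against identifiers of low abundance. Unchosen identifiers with means of 10 to below 20 CPM reached an SD of 1 in 1.13%, 1.56% and 1.59% of cases in the solvent control, low HBCD and medium HBCD, with medians of 0.207, 0.235 and 0.224. At or above the 90th percentile of the unchosen were 74 of 91, 71 of 83 and 66 of 78 chosen identifiers, and 3 in each group lay below the unchosen median. Pooled over the 3 readings, 38.1% of 252 choices had an SD of 1 or more in the group left out. Identifiers that varied in 2 groups thus mostly varied more than others in the third, though most fell short of the threshold there.

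**Figure D4:**
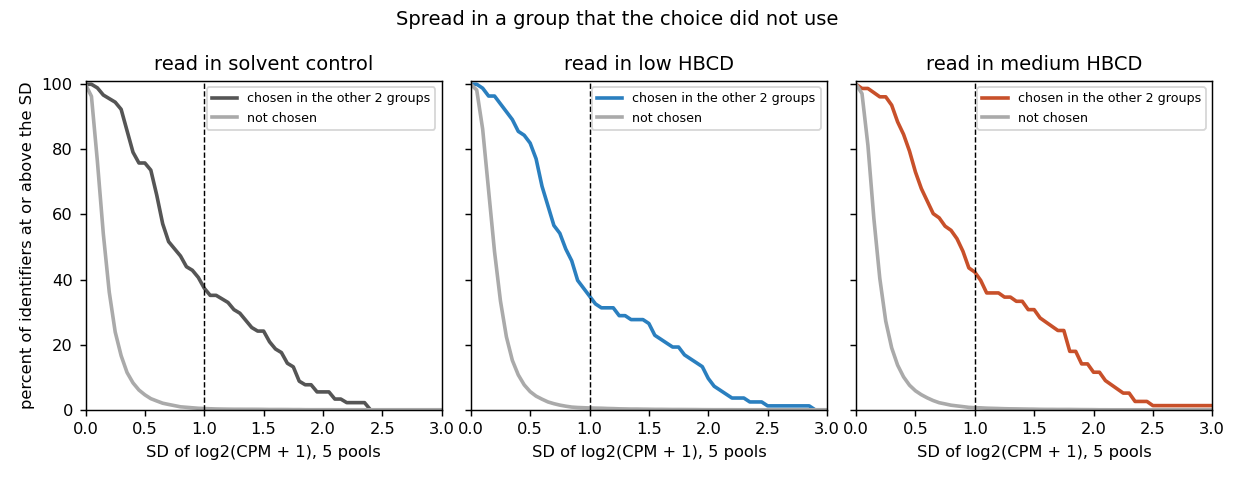
Percent of identifiers (vertical axis) whose SD of log2(CPM + 1) over 5 pools is at or above the value on the horizontal axis, read in the solvent control, low HBCD and medium HBCD. Coloured lines are identifiers chosen by the rule in the other 2 groups only and grey lines are those not chosen, and the dashed line marks an SD of 1. At that line the coloured lines stand at 37.4%, 34.9% and 42.3% and the grey lines at 0.394%, 0.562% and 0.642%.

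The mean of all pairwise correlations of their deviations from the group means over 15 libraries was 0.0269. Average-linkage clustering at a correlation of 0.5 gave 25 clusters, of which 6 held 1 identifier and 9 held 4 or more, with 52 identifiers between them. The first axis of variation took 19.6% of the within-group variance of the 83 and 38.3% of that of the others in the range. The points of each correlation share libraries and their depths, and clusters come from the values that chose the identifiers, so they are described without a test.

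Only 1 cluster had 10 members. Its mean pairwise correlation was 0.712, with a range of 0.391 to 0.992, and its central identifier was XP_005166078.1. Relative to the group mean, its 10 identifiers averaged -2.40 in medium HBCD B and -1.51 in medium HBCD C, against 0.98, 1.48 and 1.45 in medium HBCD A, D and E, on the log2(CPM + 1) scale. Without medium HBCD B and C the mean correlation over all 10 was 0.184, so it rested largely on those 2 libraries. Without solvent control D and E it was 0.732.

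Of the 10, 6 were at 1 CPM or more in every library, and their mean correlation was 0.864 with all libraries and 0.597 without medium HBCD B and C. The other 4, which had a library under 1 CPM, had 0.673 with all libraries and 0.208 without those 2. XP_005166078.1 had 121.0, 11.3, 13.9, 182.2 and 132.0 CPM in medium HBCD A to E, 33.9 to 96.3 CPM in the solvent control and 58.7 to 164.7 CPM in low HBCD. X1WG55 had 147.0, 17.8, 22.8, 129.3 and 142.5 CPM in medium HBCD A to E, and its correlation with NP_957211.1 was 0.992, the highest between any 2 of the 83. In both, medium HBCD B and C were the lowest of all 15 libraries.

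Identifiers outside the 83 were compared with the mean profile of the 10 at a strict limit. Of the 9627 others in the range, 20 (0.208%) had a correlation of 0.9 or more with that profile, and 11 (0.114%) had one of -0.9 or less. How many of the 10 reach 0.9 with their own mean profile is not given. Their mean pairwise correlation was 0.712, so these small shares do not mark the profile as particular to the 10. The median pooled SD of the 20 was 0.479 and their median mean level 112.5 CPM. The correlation of the 10 with the first axis of the others was 0.731 in size. The profile of the 10 thus overlapped in part with the broad variation of the remaining transcripts.

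**Figure D5:**
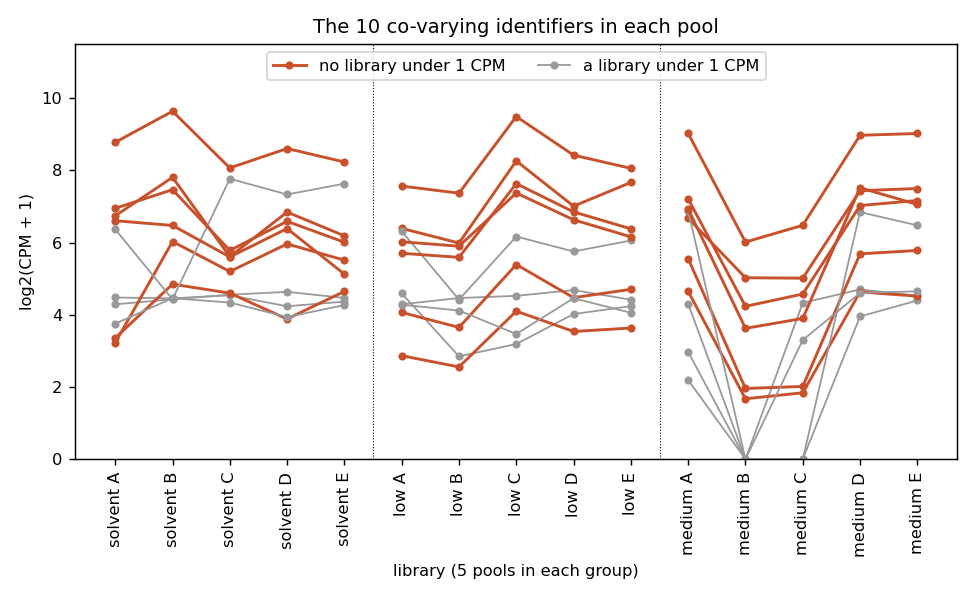
Level of the 10 identifiers of the largest cluster, as log2(CPM + 1), in each of the 15 libraries, with lines joining values of 1 identifier within a group. Dark lines are the 6 identifiers of 1 CPM or more in every library and grey lines the 4 with a library under 1 CPM. All 10 are low in medium HBCD B, and their mean deviation from the medium HBCD group mean is -2.40 in B and -1.51 in C.

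The next 8 clusters held 4 to 7 identifiers each, and the library in which each was lowest on average is given here. Any profile has such a library. The clustering groups identifiers that share a low library, so the counts under 1 CPM there follow in part from the method. One cluster of 7 was lowest in solvent control A, where 6 of the 7 were under 1 CPM. Clusters of 6 were lowest in low HBCD B, medium HBCD C and medium HBCD E, each with 5 of 6 under 1 CPM. A cluster of 5 was lowest in solvent control C, with 4 under 1 CPM there, and one of 4 in medium HBCD A, with all 4 under 1 CPM. Both remaining clusters of 4 were lowest in solvent control B, with 2 and 1 under 1 CPM. Of their 42 identifiers, 29 had their own lowest level in the library that was lowest for the cluster on average.

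The comparisons of HBCD groups with the solvent control ask whether a transcript's level in the larvae differed with HBCD in the parents' food. In none of them did the level of any of the 83 pass the test. The edgeR quasi-likelihood test with Benjamini-Hochberg adjustment over 13283 identifiers called 0 of the 83 between low HBCD and the solvent control, where it called 0.0527% of all identifiers. It called 0 between medium HBCD and the solvent control, with 0.0226% of all, and 0 between medium and low HBCD, with 0.151% of all. DESeq2 also called 0 of the 83 in each comparison, where it called 0.754%, 0.742% and 1.09% of the identifiers to which it gave an adjusted p, in the same order of comparisons. Limma-voom called 0 of the 83 as well, with 0.196%, 0.0903% and 0.181% of all identifiers. A count of 0 of 83 is close to each of these shares. At an unadjusted p under 0.05, edgeR had 3 of the 83 between low HBCD and the solvent control (background 7.65%), 1 between medium HBCD and the solvent control (background 6.29%) and 1 between medium and low HBCD (background 8.81%). The test divides a difference by the spread between pools, and these identifiers were selected on a large spread, so few calls are built into the choice. The comparisons share their libraries, since each group enters 2 of them.

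F1QG01 had the smallest p among those of the 83 that were higher in either HBCD group than in the solvent control. It had 4.96, 14.2, 15.5, 14.2 and 30.4 CPM in low HBCD A to E and 11.7, 7.13, 14.8, 10.5 and 20.8 CPM in medium HBCD A to E. In the solvent control it had less than 0.01 CPM in A, B and C, 0.362 in D and 9.46 in E. All 10 exposed pools lay above 4 of the 5 solvent control pools, and solvent control E lay within the range of both HBCD groups.

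The level of F1QG01 averaged 15.9 ± 9.14 CPM in low HBCD and 13.0 ± 5.15 CPM in medium HBCD, against 1.97 ± 4.19 CPM in the solvent control (SD, n = 5 each). The log2 fold change was 2.79 (SE 1.04, worked back from the test's F statistic) for low HBCD, with an adjusted p of 0.536 by edgeR. For medium HBCD it was 2.57 (SE 1.03), with an adjusted p of 0.718. Without solvent control E, F1QG01 was called in both comparisons, with log2 fold changes of 6.51 (adjusted p 0.0143) and 6.28 (adjusted p 0.0159) by edgeR. There edgeR called 5 of 13343 identifiers for low HBCD and 4 for medium HBCD. With all libraries its SD was 1.48 in the solvent control, 0.855 in low HBCD and 0.529 in medium HBCD. Without solvent control E the other control pools lie near 0 and F1QG01 no longer meets the rule. The library that placed it among the 83 is thus the one left out for the calls. The fold changes without solvent control E set the exposed pools against libraries near 0. Of those, D held 17.9 estimated counts and A, B and C at most 0.0410 each, so the values rest on few counts and bound nothing. Over 23 alternatives the adjusted p ran from 0.0143 to 0.807 for low HBCD and from 0.0159 to 0.993 for medium HBCD. All 15 of its counts were fractional.

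Q9YH92 had the smallest p among those that were lower in low HBCD than in the solvent control. Its levels, given above, averaged 0.229 ± 0.481 CPM in low HBCD, against 27.4 ± 33.4 CPM in the solvent control (SD, n = 5 each). Solvent control A and B lay within the range of the low HBCD pools. The log2 fold change was -7.47 (SE 2.23), with an adjusted p of 0.404 by edgeR and of 0.223 to 0.990 over 22 alternatives. Medium HBCD averaged 14.3 ± 27.7 CPM, and against low HBCD its log2 fold change was 6.56 (SE 2.21) with an adjusted p of 0.374 by edgeR. Low HBCD was near 0, with 13.9 estimated counts in E and 0.735 in B, so both fitted values rest on few counts.

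NP_001019583.1 had the smallest p among those lower in medium HBCD than in the solvent control. It had 6.85, 14.5 and 20.1 CPM in medium HBCD A, D and E and less than 0.01 CPM in B and C, against 17.8 to 22.3 CPM in the solvent control. Its log2 fold change was -1.25 (adjusted p 0.886 by edgeR), and it belonged to the 10 co-varying identifiers. A0A0R4IQJ1 had the smallest p among those lower in medium than in low HBCD, with 0.0261, 8.11, 34.2, 9.82 and 16.2 CPM in medium HBCD A to E, against 14.3 to 49.1 CPM in low HBCD. Its log2 fold change was -1.09 (adjusted p 0.692 by edgeR). In both, 1 or 2 medium HBCD pools had less than 1 CPM.

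In the authors' deposited tables of comparisons with the solvent control, 99 identifiers are listed for low HBCD and 105 for medium HBCD. None of the 83 is in either table. Of the 9627 others in the range, 65 (0.675%) and 60 (0.623%) are listed, so a count of 0 of 83 is close to that background.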

How the data were processed

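Estimated counts for each target and library, not normalized, fill 1 table that the authors deposited for 15 libraries. A further 2 deposited tables hold comparisons made by the authors. Per the file headers, each gives a signal (the mean normalized count), a log2 fold change, a score (the test statistic) and p-values, and they served here only to see which identifiers are listed. Per the submitters' processing notes, Trim Galore, kallisto and DESeq2 were used, with versions and reference sequences not given in the sources used here.

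Estimated counts were summed per identifier and divided by the library total to give CPM. For tests they were rounded to whole numbers and fitted with edgeR 4.0.16 in R 4.3.3 (TMM, filterByExpr, robust quasi-likelihood, 15 libraries in 1 fit, no covariates, adjusted p under 0.05), which kept 13283 identifiers and all 83 described, with a common biological coefficient of variation of 0.273. Each SE given with a log2 fold change is the size of that change divided by the square root of the test's F statistic. It is not an output of the fit. DESeq2 1.42.0 and limma-voom (limma 3.58.1) were alternatives. Scripts were tested on simulated data. Library totals of 12.6 to 58.4 M (mega-counts) bound the precision, and 1 CPM equals more than 12 counts in every library.

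The members and lists were chosen with earlier results of these data known. Identifiers named by rule were the 10 of largest pooled SD, the 3 on either side of the threshold, in each comparison those of smallest p in each direction, the central and most abundant identifiers of clusters of 10 or more, and the most abundant of all.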

Additional observations from a re-analysis of the deposited data

Results flagged for a closer look

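In 63 sets of 5 libraries, the library farthest out was compared with its nearest neighbour. The sets were the 3 groups for each of 18 named identifiers, on the log2(CPM + 1) scale, and for the library total, the number of the 83 under 1 CPM and their summed CPM. The distance exceeded 0.71 of the group's whole range in 6 sets, all of them sets of an identifier. The limit is meant to be passed by chance in about 1 in 20 sets, but that rate does not apply to these identifiers. They had been chosen for a large spread within groups, and many had pools under 1 CPM. The number of sets past the limit therefore cannot be compared with chance. All 6 sets are described by their values alone.

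XP_005160470.1 had 3.219e-08 CPM in solvent control B, with a gap of 0.93 of the range to the next pool. F1R2E0 had 0.02554 CPM in solvent control B, with a gap of 0.757. Q5TZH0 had 0.00155 CPM in solvent control A, with a gap of 0.759. XP_021333664.1 had 10.35 CPM in solvent control A, with a gap of 0.872, although it was present in every library. In these 4 sets the outlying pool was the lowest of the solvent control. Q9YH92 had 1.089 CPM in low HBCD E, with a gap of 0.927 above pools near 0. F1QG01 had 9.461 CPM in solvent control E, with a gap of 0.868 above the next pool, which is the library that decides its calls.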

How the results depend on the processing

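The rule chose 83 identifiers. It chose 22 with a pseudocount of 5, 23 with means of 20 CPM or more, and 38, of which 28 were shared, with a scaled median absolute deviation. It chose 104 with a pseudocount of 0.5, 83 with TMM factors, 82 after thinning and 77 to 92 when each library was left out, with 70 to 80 of the 83 kept. Calls among the 83 were 0 in each comparison, except 1 (F1QG01) for low HBCD and 1 for medium HBCD against the solvent control without solvent control D and E, where its log2 fold changes were 11.13 and 10.91 (adjusted p 0.028 and 0.0358 by edgeR). In that setting edgeR called 1 of 13434 identifiers in each of these comparisons. Solvent control A, B and C held at most 0.0410 estimated counts of F1QG01 each, so these fold changes depend on the prior count of the fit. F1QG01 also no longer meets the rule in that setting. Leaving out each library gave 0 to 1 for both comparisons with the solvent control and 0 to 0 for medium against low HBCD. The 1 was F1QG01 without solvent control E, where edgeR called 5 of 13343 identifiers for low HBCD and 4 for medium HBCD. With the letters as a replicate block edgeR called 0, 0 and 0 of the 83 (low HBCD against the solvent control, medium HBCD against it, medium against low HBCD), beside 0.00753%, 0% and 0.0301% of all identifiers. Unadjusted counts were 6, 2 and 2 of the 83, beside 7.51%, 6.03% and 8.69% of all. Over the 15 pairs of libraries with the same letter, the correlation of deviations from group means ran from -0.415 to 0.370. Of these correlations, 9 exceeded 0.1. They do not settle whether the letters pair libraries, since pairs with different letters are not given beside them. The letters were not used as pairs in the main fit because the labels do not state a link.

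The share of fractional values was 89.48% with a tolerance of 0.001 and 91.48% to 91.91% when each library was left out. The share of choices that had an SD of 1 or more in the group left out was 47.95% of 73 with a pseudocount of 5 and 32.51% to 39.11% when each library was left out. Identifiers with a library under a limit numbered 56 at 0.5 CPM, 67 at 2 CPM and 53 without medium HBCD B and C. The mean correlation of the 10 co-varying identifiers was 0.184 without medium HBCD B and C. The values without those libraries and the limits of 0.5 and 2 CPM were chosen after seeing the data. The causes of these changes were not tested. Depth limits what can be read from a level under 1 CPM, and divided reads limit the level of any identifier with fractional counts.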

Other observations

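F1RAU6, A0A0R4ICG0 and E7F9S0 (3 of 83, 3.61%) had the same letter as their lowest and the same letter as their highest library in all 3 groups, against 58 of the 9627 others in the range (0.602%). F1RAU6 and A0A0R4ICG0 moved together (correlation 0.982), so they are hardly separate cases. Their highest library, D, was also the deepest of low HBCD and of medium HBCD, and the part of depth was not tested. E7F9S0 was below 0.01 CPM in both B and D of medium HBCD, so its lowest library there is nearly a tie. The lowest library had the same letter in all groups for 5 of the 83 (6.02%) and 3.69% of the others, and the highest for 8 (9.64%) and 5.29%. The labels give the letters no meaning beyond the replicate name.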
